A study of Mus musculus with 37 samples.

Results

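Astrocytes of the injured cortex of mice with post-traumatic epilepsy (PTE+) were compared with astrocytes of the matching cortex of sham mice. The libraries were chosen by their labels, as every ipsilateral cortical library labelled Ipsi PTE+ (4) or Ipsi SHAM (5), which takes 9 of the 37 libraries of the series. The 10 ipsilateral libraries of injured mice without epilepsy (PTE-) were left out of this comparison. PTE+ mice 8_10, 9_17, 9_18 and 9_19 had a severe controlled cortical impact (CCI), in which a driven tip strikes the exposed cortex, and later seizures on EEG. Sham mice 8_15, 8_16, 9_9, 9_10 and 9_11 had a craniectomy and EEG electrodes and no impact. All mice were wild-type males, named CD1 in the methods and CD31 in the labels, and were sampled 4 months after surgery, with no age stated. Cortical tissue was dissociated and astrocytes were taken with magnetic beads against the surface antigen ACSA-2, so that each library is bulk RNA from 1 mouse. A further PTE+ mouse, 8_17, has a contralateral library and no ipsilateral one.

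Astrocytes clear glutamate and potassium from the space around neurons and carry aquaporin-4 on their endfeet. After injury they become reactive, a state known for higher levels of the intermediate filaments GFAP and vimentin and of secreted acute-phase and complement proteins, in part through cytokines that signal by gp130 and STAT3. Immediate early genes such as Fos and Egr1 are transcribed within minutes of stimulation, which includes seizures, handling and the dissociation of tissue, and the inducible Hsp70 genes answer heat and protein stress.

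The deposited unit was TPM, the length-normalised share of transcripts, which has the same total in every library, so the depth of each library is unknown and no counting interval can be given. The methods give the mean number of reads per library and no number for each. Between 15622 (sham 9_10) and 17125 (PTE+ 9_19) genes of the table were above 0 TPM. The astrocyte label was checked against its markers, which were abundant in each library. All 14 astrocyte identity genes passed the filter of a mean above 5 TPM in at least 1 group, and their summed level was 19150.5, 19885, 19467, 21565 and 25612 TPM in sham mice 8_15, 8_16, 9_9, 9_10 and 9_11. In PTE+ mice 8_10, 9_17, 9_18 and 9_19 the sum was 19643, 23801, 23619 and 21683 TPM. Values of single mice below keep these orders of mice. Aldoc, a glycolytic enzyme and the most abundant gene of this list, measured 10244 ± 981 TPM (mean ± SD) in 4 PTE+ and 10449.8 ± 1057 TPM in 5 sham mice.

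Sham mouse 9_11 stood apart from the other libraries. Across all tested genes its correlation with the other 8 libraries had a median of 0.904 (0.875 to 0.948), against medians of 0.943 to 0.964 for each of the others, where genes are not independent replicates. It scored 59.9 on the first principal component, which held 43.0% of the variance, and the other 8 libraries lay between −34.0 and 20.1. Its median log2 level over tested genes was 4.995, the highest of the 9, and its share of mitochondrial transcripts was 1.80%, the lowest, against 4.35% to 9.68% in the others. Its astrocyte sum was the highest and its oligodendrocyte sum, 543 TPM, the lowest of the 9. The count of DEGs and the counts of most lists below are therefore given with and without this mouse. For the lists this choice was made after these values had been seen.

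Transcripts of other cell types were present in every library and varied most among sham mice. The 14 oligodendrocyte markers, of which 12 passed the filter, summed to 1819, 4172, 3147, 4509.8 and 543 TPM in the sham mice and to 2386, 1226, 1270.4 and 1677 TPM in the PTE+ mice. Mbp, a myelin protein and the most abundant of them, had means of 898 TPM in PTE+ and 1721 TPM in sham mice. The 5 erythrocyte genes summed to 4688, 507, 907, 12624 and 2123 TPM in sham and to 1320.4, 1650.03, 1159 and 502 TPM in PTE+ mice, with Hba-a1, a haemoglobin chain, the most abundant. Microglia markers (12 genes, 11 tested) summed to 199, 271, 318, 871 and 125 TPM in sham and to 349, 212, 270.4 and 157 TPM in PTE+ mice. The ranges of sham and PTE+ sums overlapped in each of these lists.

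Among the remaining marker lists, the 12 neuronal genes (9 tested, led by Snap25) summed to 186 to 565 TPM in sham and 309.7 to 459 TPM in PTE+ mice. Endothelial genes (12, of which 10 tested, led by Ly6c1) summed to 519.7 to 2078 TPM in sham and 447 to 1933 TPM in PTE+ mice. Mural, meningeal and fibroblast genes (14, of which 10 tested, led by Vtn) summed to 997 to 2466 TPM in sham and 1365 to 1733 TPM in PTE+ mice. Oligodendrocyte precursor genes (10, of which 9 tested, led by Olig1) summed to 260.0 to 457 TPM in sham and 261 to 463 TPM in PTE+ mice. Ependymal and motile cilia genes (10, of which 9 tested, led by Rsph1) summed to 52.2 to 495 TPM in sham and 216 to 422 TPM in PTE+ mice. Macrophage and lymphocyte genes (10, of which 3 tested, led by Cd74) summed to 28.1 to 331 TPM in sham and 56.9 to 149 TPM in PTE+ mice. In these 9 lists 0 markers were at 0 TPM in all 9 libraries. In bulk RNA, fewer cells of a type and less RNA per cell cannot be told apart, and the part of these transcripts in the differences below was not tested.

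Before adjustment for the number of genes, 6 of 10 tested reactive astrocyte genes, Cntf and the complement genes C3 and C4b rose in the epileptic injured cortex. Fos, Egr1 and 5 more of 10 tested immediate early genes and 2 Hsp70 genes fell, and Fos, Egr1 and the Hsp70 genes were high in 3 of the 5 sham mice. Gfap rose 2.45-fold, Ucma 4.78-fold, Cntf 3.83-fold and Bace2 2.86-fold, while Fos fell 4.51-fold and Egr1 3.01-fold, as ratios on the scale of TPM + 1. Of 10447 genes tested, 163 (1.56%) were differentially expressed genes (DEGs), which means an unadjusted p under 0.05 by limma, two-sided, and a fold change of at least 1.2. Of these, 124 (1.19%) were higher and 39 (0.373%) lower in PTE+ mice. Every PTE+ mouse lay above every sham mouse for 61 genes (0.584%) and below every sham mouse for 9 (0.0861%), and 33 of the 124 higher and 6 of the 39 lower DEGs were among these. No gene had an adjusted p under 0.05 (0 of 10447, 0%), with 163 genes at an unadjusted p under 0.05 and a smallest limma adjusted p of 0.865. The plot of all tested genes shows the spread of differences with their p-values.

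**Figure D1:**
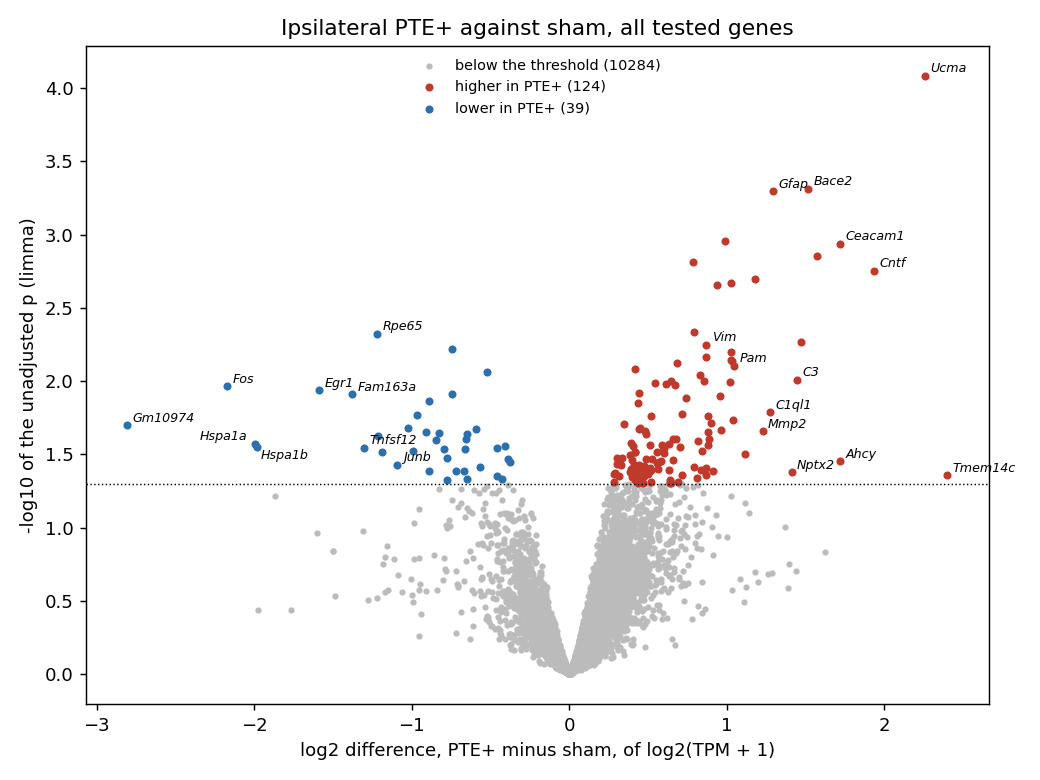
Each point is 1 of the 10447 tested genes, with the log2 difference between 4 PTE+ and 5 sham libraries on the horizontal axis and −log10 of the unadjusted limma p on the vertical axis, and the dotted line marks p of 0.05. The 124 higher DEGs are red and the 39 lower ones blue, and Ucma has the smallest p while Gm10974, Fos and the Hsp70 genes lie farthest to the left.

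The count depended on single mice and on the scaling of the libraries. Without sham mouse 9_11, 1038 of 10434 genes (9.95%) were DEGs, 866 (8.3%) higher and 172 (1.65%) lower, again with 0 genes at an adjusted p under 0.05 (smallest limma adjusted p 0.345), and 145 of the 163 DEGs were among them. Without PTE+ mouse 9_18 the count was 95 and without PTE+ mouse 9_19 it was 97. The median log2 difference over all tested genes was 0.09, and when each library was centred on its median 101 genes were higher and 97 lower, of 198 DEGs. Quantile normalization gave 100 higher and 107 lower, so the excess of higher genes was not kept under either scaling. Mouse names begin with 8 or 9, which the labels do not explain. Among mice with prefix 9 (3 PTE+ and 3 sham) there were 144 DEGs, 121 higher and 23 lower, of which 71 were shared with the 163. Prefix 8 holds 1 PTE+ mouse, so no test was made within it.

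Among the lists, the reactive astrocyte genes held the most genes that rose. Of the 14 genes of this list 10 were tested and 6 were DEGs, all higher, beside the 1.19% of all tested genes that were higher, with a median log2 difference of 0.73 against 0.09 for all tested genes. In the fit without sham mouse 9_11, 7 of the 10 were higher and 0 lower, beside 8.3% of all tested genes, with a median of 0.7995. The summed level of the list was 523, 646, 521, 662 and 648 TPM in sham and 743, 837, 1375 and 1511 TPM in PTE+ mice, so every PTE+ mouse lay above every sham mouse. Gfap made up most of the PTE+ sum, and the mean log2 level of the tested genes overlapped, at 4.76 and 4.82 in PTE+ mice 8_10 and 9_17. Sham mice 8_16 (4.96), 9_10 (4.84) and 9_11 (4.85) lay above both.

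Gfap (ENSMUSG00000020932, chromosome 11, 102887336 to 102900912 on GRCm38), the main astrocyte intermediate filament, measured 188, 235, 245, 373 and 324 TPM in sham and 422, 493, 887 and 970.3 TPM in PTE+ mice. The groups did not overlap, and PTE+ mice 9_18 and 9_19 had the highest levels. The mean and SD were 693 ± 276 TPM over 4 PTE+ and 273 ± 74.0 TPM over 5 sham mice, a log2 difference of 1.29 (SE 0.27, two-sided exact permutation p = 0.0159, the smallest that 126 arrangements of 4 and 5 mice allow). Vim, the intermediate filament vimentin, measured 82.4, 75.9, 69.7, 94.0 and 42.7 TPM in sham and 95.3, 100.5, 154 and 193 TPM in PTE+ mice. Again the groups did not overlap, although PTE+ mouse 8_10 lay just above sham 9_10, and the log2 difference was 0.87 (SE 0.26, exact permutation p = 0.0159). Both calls were kept with each mouse left out.

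Aspg, an asparaginase counted among pan-reactive astrocyte genes, measured 8.64, 16.3, 13.6, 9.88 and 16.6 TPM in sham and 16.9, 17.9, 22.3 and 33.0 TPM in PTE+ mice. Its groups did not overlap, but the lowest PTE+ and highest sham mice were close, and the log2 difference of 0.74 (SE 0.25) lost its call without PTE+ mouse 9_19 (0.55). Serpina3n, a secreted inhibitor of serine proteases, rose by 0.72 on the log2 scale (SE 0.32) with overlapping groups, at 108 ± 39.8 TPM (SD, n = 4) against 66.6 ± 26.8 TPM (SD, n = 5). It lost its call without PTE+ mouse 9_18 (0.57) or 9_19 (0.55), without sham mouse 8_15 (0.59) or 9_10 (0.53), and after median centring (0.63) or quantile normalization (0.67). Cd44, a hyaluronan receptor, rose by 0.96 (SE 0.36), with no call without PTE+ mouse 9_18 (0.89) or 9_19 (0.80) or sham mouse 8_16 (0.82). Cxcl10, an interferon-induced chemokine, rose by 0.91 (SE 0.40) and lay within the sham range in all but PTE+ mouse 8_10. Leaving out any of the 4 PTE+ mice, or sham mouse 8_15, 8_16 or 9_9, ended the call of Cxcl10, at differences of 0.71 to 0.97, and among mice with prefix 9 it was 0.32 and not called. Lcn2, a further acute-phase gene of the list, did not pass the test, at 0, 38.3, 1.35, 21.0 and 0.44 TPM in sham and 0.61, 0, 6.46 and 5.78 TPM in PTE+ mice.

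The complement genes C3 and C4b and the cytokine gene Cntf also rose. Of 16 complement genes 11 were tested and 2, C3 and C4b, were DEGs, both higher, beside 1.19% of all tested genes, with a median difference of 0.20 over the list. The same 2 were the DEGs without sham mouse 9_11, beside 8.3%. C3, the central complement component, measured 0.86, 3.50, 1.08, 3.76 and 2.83 TPM in sham and 3.32, 4.81, 10.6 and 17.8 TPM in PTE+ mice. PTE+ mouse 8_10 lay within the sham range and the other 3 above it. The log2 difference was 1.44 (SE 0.47, exact permutation p = 0.0476). C4b, which acts upstream of C3, measured 27.2, 56.2, 32.3, 44.4 and 69.0 TPM in sham and 56.5, 61.3, 120.3 and 149 TPM in PTE+ mice, a difference of 1.02 (SE 0.33, exact permutation p = 0.0635). PTE+ mice 9_18 and 9_19 were above all sham mice and the other PTE+ mice were not. Clu, the most abundant gene of the list, had means of 10713 TPM in PTE+ and 9562 TPM in sham mice and was no DEG.

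Of 15 genes of the CNTF and gp130-STAT3 list 10 were tested, with a list median of 0.23. Cntf (ENSMUSG00000079415), ciliary neurotrophic factor, measured 1.52, 1.83, 3.34, 0.21 and 2.14 TPM in sham and 2.76, 9.73, 14.1 and 14.9 TPM in PTE+ mice. PTE+ mouse 8_10 lay below sham mouse 9_9, and the other 3 PTE+ mice lay above every sham mouse. The log2 difference was 1.94 (SE 0.48, exact permutation p = 0.0317) and kept its call with each mouse left out, between 1.66 and 2.404. Cntfr, the receptor subunit for CNTF, had means of 164 TPM in PTE+ and 163 TPM in sham mice, and Stat3 had 81.5 and 66.1 TPM. Neither was a DEG with all 9 mice, and Stat3 and Il6st, which encodes gp130, were higher when sham mouse 9_11 was left out.

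The gene with the smallest p was Ucma (ENSMUSG00000026668, chromosome 2, 4976122 to 4985748), which encodes a secreted protein known from cartilage matrix. It measured 2.80, 4.26, 1.71, 3.13 and 0.55 TPM in sham and 9.30, 11.8, 15.9 and 24.2 TPM in PTE+ mice. The groups did not overlap, and the lowest PTE+ mouse was above the highest sham mouse by more than the spread of the sham mice. The difference was 2.26 (SE 0.39, exact permutation p = 0.0159, limma adjusted p 0.865, higher in 4 of 4 PTE+ mice). On chromosome 1, 1500015O10Rik, also known as Ecrg4 and encoding a secreted peptide precursor, measured 16.6, 10.3, 9.03, 7.73 and 2.78 TPM in sham and 20.3, 20.4, 36.6 and 31.6 TPM in PTE+ mice. It too had no overlap, and rose by 1.57 (SE 0.38, exact permutation p = 0.0159), the largest positive change among genes with a Gm or Rik name.

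Bace2 (ENSMUSG00000040605), an aspartic protease related to the beta-secretase BACE1, measured 3.82, 2.84, 5.75, 3.17 and 2.77 TPM in sham and 6.30, 12.4, 13.1 and 19.98 TPM in PTE+ mice. There was no overlap, with 8_10 the PTE+ mouse nearest to sham, and the difference was 1.52 (SE 0.32, exact permutation p = 0.0159). Ceacam1, a cell adhesion molecule, measured 3.06, 4.74, 1.61, 6.08 and 1.23 TPM in sham and 13.7, 12.4, 19.4 and 6.17 TPM in PTE+ mice. Here 9_19 was the lowest PTE+ mouse, just above sham mouse 9_10, and the difference was 1.72 (SE 0.41, exact permutation p = 0.0159). Pam, the enzyme that amidates neuropeptides, measured 6.87, 13.9, 5.89, 9.71 and 18.2 TPM in sham and 13.6, 26.4, 20.8 and 30.4 TPM in PTE+ mice. All but 8_10 of the PTE+ mice lay above the sham range, and the difference was 1.05 (SE 0.33, exact permutation p = 0.0476).

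C1ql1, a secreted C1q-family ligand that is also on the list of oligodendrocyte precursor markers, measured 7.98, 7.08, 11.9, 22.3 and 18.6 TPM in sham and 12.6, 26.7, 38.4 and 73.4 TPM in PTE+ mice. The groups overlapped through 8_10, and the difference of 1.28 (SE 0.46) lost its call without PTE+ mouse 9_19 (0.88). Mmp2, a matrix-degrading gelatinase, rose by 1.23 (SE 0.47), at 5.995 ± 4.43 TPM (SD, n = 4) against 1.77 ± 1.05 TPM (SD, n = 5), and lost its call without PTE+ mouse 9_17 (1.18) or sham mouse 8_15 (1.0). Without PTE+ mouse 9_19 the level of Mmp2 no longer passed the filter. Nptx2, a secreted pentraxin that binds AMPA receptors, measured 9.84, 7.32, 0.20, 4.57 and 13.03 TPM in sham and 14.97, 8.23, 15.1 and 28.2 TPM in PTE+ mice. Sham mouse 9_9 was the low one, and without it the difference of 1.41 (SE 0.62) was 0.82 and no longer a DEG, as was so without PTE+ mouse 8_10 (1.42), 9_18 (1.41) or 9_19 (1.13) or sham mouse 9_10 (1.38). Of the 11 named higher genes, 4 had groups without overlap (Ucma, Ceacam1, Bace2 and Gfap).

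Tmem14c and Ahcy were on in some mice and off in others of both groups. Tmem14c, a mitochondrial membrane protein of the heme synthesis pathway with the largest positive difference (2.402, SE 1.06), measured 3.82, 2.49, 2.18, 61.7 and 4.93 TPM in sham and 72.8, 66.7, 2.44 and 124 TPM in PTE+ mice. Sham mouse 9_10 was at the PTE+ level and PTE+ mouse 9_18 at the sham level (exact permutation p = 0.143). Its call was lost without PTE+ mouse 8_10 (2.09), 9_17 (2.13) or 9_19 (1.83), and without sham mouse 8_15 (2.25), 8_16 (2.14), 9_9 (2.10) or 9_11 (2.33). Ahcy, which breaks down S-adenosylhomocysteine, measured 0.11, 6.11, 0.34, 0.22 and 0.08 TPM in sham and 7.55, 7.87, 8.96 and 0.28 TPM in PTE+ mice, so sham mouse 8_16 and PTE+ mouse 9_19 each stood with the other group. Its difference of 1.72 (SE 0.72, exact permutation p = 0.0476) was no longer called without PTE+ mouse 8_10 (1.51), 9_17 (1.5) or 9_18 (1.44), or sham mouse 8_15 (1.57), 9_9 (1.63), 9_10 (1.6) or 9_11 (1.56).

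**Figure D2:**
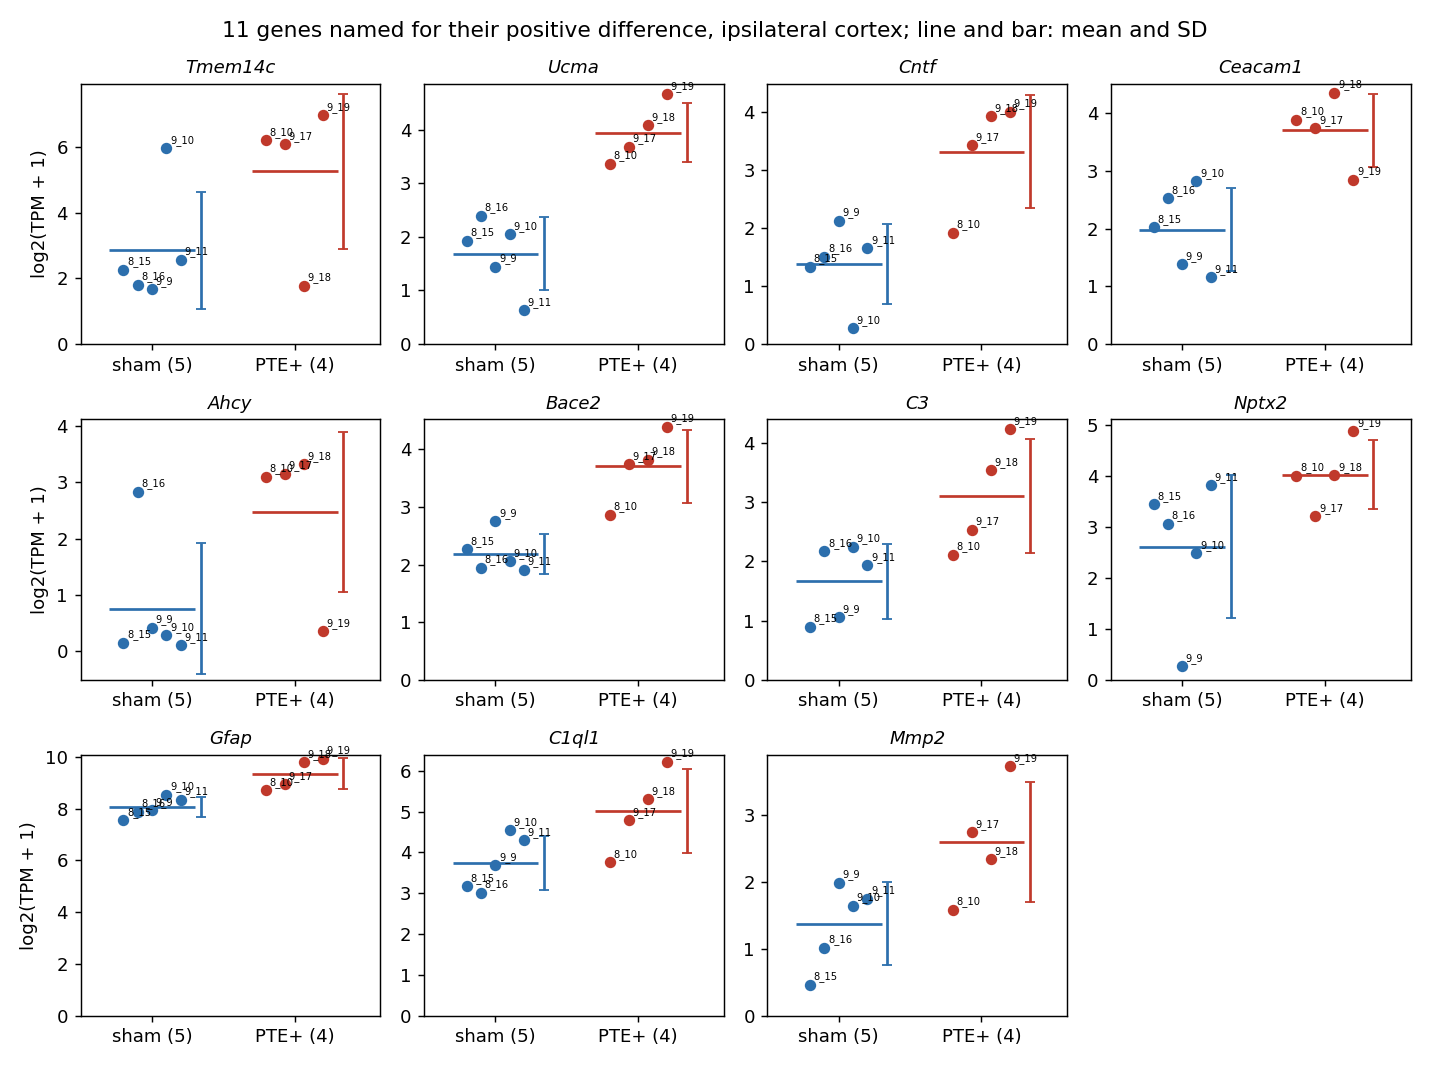
Each panel shows 1 of the 11 named higher genes, with log2(TPM + 1) on the vertical axis, a labelled point for each of 5 sham (blue) and 4 PTE+ (red) mice, and a line and bar for the group mean and SD. Ucma, Ceacam1, Bace2 and Gfap show no overlap, mouse 8_10 is often the lowest PTE+ mouse, and in the panels of Tmem14c and Ahcy 1 mouse of each group stands with the other group.

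In 71 of the 124 higher DEGs (57.3%) mouse 9_19 was the highest of the 4 PTE+ mice, which it was in 36.5% of all tested genes. Mouse 8_10 was the lowest in 67 of them (54.0%), close to its 50.5% of all tested genes.

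Immediate early genes moved the other way. Of 14 genes 10 were tested and 7 were DEGs, all lower (Fos, Junb, Egr1, Ier2, Nr4a1, Dusp1 and Btg2), beside the 0.373% of all tested genes that were lower, and all 10 had a difference below 0, with a median of −0.92 against 0.09 for all tested genes. Their summed level was 1026, 978, 453, 445 and 1489.5 TPM in sham and 393, 467, 308 and 478 TPM in PTE+ mice. Sham mice 8_15, 8_16 and 9_11 were high, and sham mice 9_9 and 9_10 were at the level of the PTE+ mice. When sham mouse 9_11 was left out, 5 of the 10 were DEGs, all lower, beside the 1.65% of all tested genes, with a median of −0.68.

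Fos (ENSMUSG00000021250), a subunit of the AP-1 transcription factor, measured 283, 239, 41.1, 24.0 and 363 TPM in sham and 17.6, 23.7, 24.9 and 42.7 TPM in PTE+ mice. The same 3 sham mice were high, and the groups overlapped through 9_9 and 9_10. The mean fell from 189.9 ± 151 TPM (SD, n = 5) in sham to 27.2 ± 10.8 TPM (SD, n = 4), a log2 difference of −2.17 (SE 0.72, exact permutation p = 0.0952). Among mice with prefix 9 it was −1.26 and no DEG. Egr1, a zinc finger transcription factor, measured 42.9, 38.03, 10.8, 8.57 and 69.7 TPM in sham and 5.78, 7.18, 7.59 and 12.1 TPM in PTE+ mice, a difference of −1.59 (SE 0.53, exact permutation p = 0.0635) that was −1.04 and not called among mice with prefix 9. Fos and Egr1 kept their calls with each mouse left out.

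Junb, a partner of Fos in AP-1, fell by 1.09 on the log2 scale (SE 0.46), from 118 ± 64.4 TPM (SD, n = 5) in sham to 50.8 ± 21.4 TPM (SD, n = 4) in PTE+ mice. It lost its call without PTE+ mouse 8_10 (−1.06) or 9_18 (−0.78) and without sham mouse 8_15 (−0.99), 8_16 (−0.97) or 9_11 (−0.84). Nr4a1, an orphan nuclear receptor, measured 20.6, 16.7, 27.0, 6.60 and 70.3 TPM in sham and 7.75, 11.4, 8.15 and 8.57 TPM in PTE+ mice, a difference of −1.19 (SE 0.48). Without sham mouse 9_11 it was −0.78, and the call was lost without PTE+ mouse 8_10 (−1.13), 9_18 (−1.16) or 9_19 (−1.18) or sham mouse 9_9 (−1.11). Ier2 fell by 0.99 (SE 0.40) and was not called without PTE+ mouse 9_18 (−0.85) or 9_19 (−0.93) or sham mouse 8_15 (−0.87), 8_16 (−0.79) or 9_11 (−0.84). Dusp1, a phosphatase that switches off MAP kinases, fell by 0.84 (SE 0.33), with no call without PTE+ mouse 9_18 (−0.71) or sham mouse 8_16 (−0.77). Btg2, an antiproliferative gene, fell by 0.74 (SE 0.25) and kept its call with each mouse left out. Among mice with prefix 9, Btg2 was the only 1 of the 7 to keep its call, at −0.96, and both Hsp70 genes lost theirs.

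The inducible Hsp70 genes Hspa1a and Hspa1b fell, while the rest of the heat shock list did not pass the test. Hspa1a measured 51.3, 29.9, 3.98, 4.34 and 105 TPM in sham and 5.42, 4.09, 4.12 and 4.26 TPM in PTE+ mice. The high mice were again sham 8_15, 8_16 and 9_11, and the 4 PTE+ mice lay close together. The difference was −1.98 (SE 0.79, exact permutation p = 0.175). Hspa1b measured 99.8, 50.9, 6.80, 8.73 and 166 TPM in sham and 8.02, 9.76, 7.61 and 7.62 TPM in PTE+ mice, a difference of −1.99 (SE 0.79, exact permutation p = 0.175). The genes are near copies of each other, so the split of reads between them is uncertain. Hspa1a lost its call without PTE+ mouse 9_17 (−1.95), 9_18 (−1.95) or 9_19 (−1.96), or sham mouse 8_15 (−1.66), 8_16 (−1.85) or 9_11 (−1.40), and Hspa1b without PTE+ mouse 9_18 (−1.96) or 9_19 (−1.96) or sham mouse 8_15 (−1.63) or 8_16 (−1.87). All 14 genes of the list were tested, 2 were lower and 0 higher, beside 0.373% of all tested genes (1 lower, Hspa1b, without sham mouse 9_11, beside 1.65%), and the median difference was 0.05. Hspa8, the constitutive family member and the most abundant of the list, had means of 882 TPM in PTE+ and 752 TPM in sham mice.

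**Figure D3:**
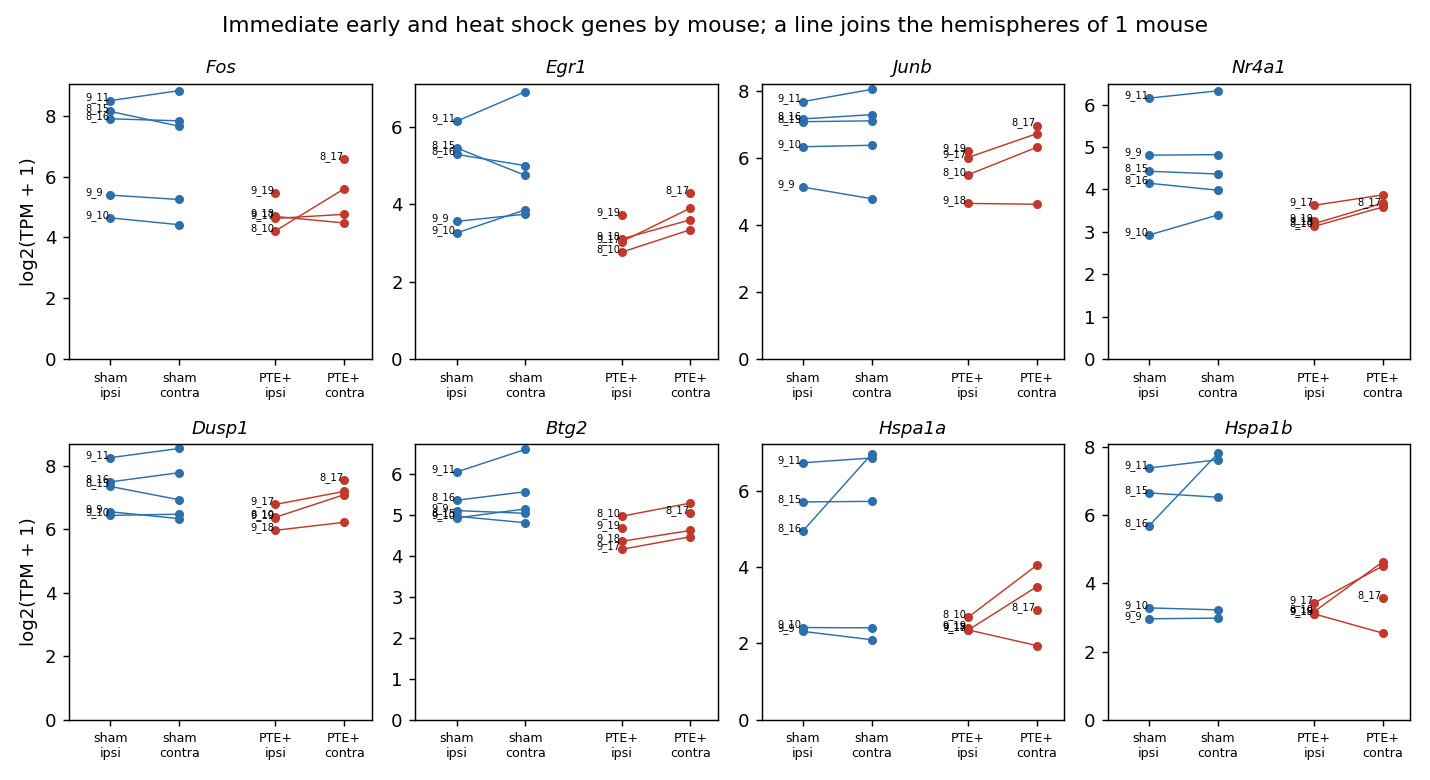
Each panel shows 1 immediate early or Hsp70 gene, with log2(TPM + 1) on the vertical axis, and a line joins the ipsilateral and contralateral library of 1 mouse, sham in blue and PTE+ in red. Sham mice 8_15, 8_16 and 9_11 lie high in both hemispheres for Fos, Egr1, Hspa1a and Hspa1b, and sham mice 9_9 and 9_10 lie with the PTE+ mice.

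The same sham mice were high on the uninjured side. In the contralateral cortex Fos measured 202, 228, 37.1, 20.4 and 455 TPM in the 5 sham mice, and Hspa1a 51.8, 124, 3.28, 4.31 and 115 TPM. In the sham mice the levels thus went with the mouse on both sides. In PTE+ mice 8_10, 8_17, 9_17 and 9_18 contralateral Fos measured 47.6, 94.2, 26.15 and 21.3 TPM and Hspa1a 15.5, 6.29, 10.2 and 2.85 TPM. Mice 8_10 and 9_17 were thus higher there than on their injured side in both genes, and 9_18 was lower.

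Because 7 immediate early genes fell together, their promoters were searched for motifs, after the values had been seen. The 250 bases before the start were taken from the RefSeq promoter table on GRCm38.p6, and are shown for 5 of these genes and both Hsp70 genes. The promoters of Egr1 and Ier2 were not analysed here, and the choice of promoters did not depend on their matches. In all 10 motifs were searched on both strands. They were the cAMP response element as its core TGACG, as TGACGT with a further base and as the full TGACGTCA, the heat shock element as the pair GAANNTTC and as a run of 3 units, the STAT site as TTCNNNGAA, the AP-1 site as TGANTCA, the CCAAT box, the CArG box and the NF-kB site. The core was chosen for display after the matches were known, and the longer forms contain it and so overlap with it. The capitals mark TGACG on either strand in the first 5 sequences, and GAANNTTC, a unit pair of the heat shock element, in the Hsp70 genes. The intervals are chr12:85473640-85473889 (+ strand) for Fos, chr8:84978749-84978998 (− strand) for Junb, chr15:101266596-101266845 (+ strand) for Nr4a1, chr17:26508473-26508722 (− strand) for Dusp1, chr1:134079156-134079405 (− strand) for Btg2, chr17:34972157-34972406 (− strand) for Hspa1a and chr17:34959239-34959488 (− strand) for Hspa1b.
Fos: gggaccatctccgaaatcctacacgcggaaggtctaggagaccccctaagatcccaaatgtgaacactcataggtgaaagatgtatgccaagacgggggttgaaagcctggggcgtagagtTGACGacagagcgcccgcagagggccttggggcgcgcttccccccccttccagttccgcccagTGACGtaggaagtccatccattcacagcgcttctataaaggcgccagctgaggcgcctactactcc
Junb: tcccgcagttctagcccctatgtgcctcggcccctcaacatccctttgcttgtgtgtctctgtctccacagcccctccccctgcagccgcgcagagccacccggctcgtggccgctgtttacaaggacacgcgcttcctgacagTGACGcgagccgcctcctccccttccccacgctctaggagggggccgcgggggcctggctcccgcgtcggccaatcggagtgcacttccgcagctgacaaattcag
Nr4a1: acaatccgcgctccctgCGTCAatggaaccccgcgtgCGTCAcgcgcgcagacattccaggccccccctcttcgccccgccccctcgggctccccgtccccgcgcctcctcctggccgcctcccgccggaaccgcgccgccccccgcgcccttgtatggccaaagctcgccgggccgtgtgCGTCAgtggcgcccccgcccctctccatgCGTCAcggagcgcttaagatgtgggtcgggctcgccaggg
Dusp1: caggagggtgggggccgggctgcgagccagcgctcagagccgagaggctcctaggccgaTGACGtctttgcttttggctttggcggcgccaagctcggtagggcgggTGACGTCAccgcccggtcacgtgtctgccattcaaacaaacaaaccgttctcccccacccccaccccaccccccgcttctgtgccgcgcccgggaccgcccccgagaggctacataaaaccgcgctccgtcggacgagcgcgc
Btg2: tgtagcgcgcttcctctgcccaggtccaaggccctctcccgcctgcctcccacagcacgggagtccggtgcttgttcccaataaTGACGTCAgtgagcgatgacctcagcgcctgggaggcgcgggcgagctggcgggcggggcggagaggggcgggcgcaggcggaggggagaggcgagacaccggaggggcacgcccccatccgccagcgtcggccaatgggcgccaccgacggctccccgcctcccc
Hspa1a: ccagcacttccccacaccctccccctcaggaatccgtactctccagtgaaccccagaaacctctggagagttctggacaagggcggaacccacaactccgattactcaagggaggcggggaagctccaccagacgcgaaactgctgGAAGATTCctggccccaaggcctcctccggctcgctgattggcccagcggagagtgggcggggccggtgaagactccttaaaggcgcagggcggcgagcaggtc
Hspa1b: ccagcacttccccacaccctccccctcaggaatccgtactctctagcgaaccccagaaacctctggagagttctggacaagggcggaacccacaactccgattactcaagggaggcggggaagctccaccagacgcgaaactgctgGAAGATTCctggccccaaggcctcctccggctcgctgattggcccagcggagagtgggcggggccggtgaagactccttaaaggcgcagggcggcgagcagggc

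In the 5 immediate early promoters shown, TGACG had 2 matches in Fos, 1 in Junb, 4 in Nr4a1, 3 in Dusp1 and 2 in Btg2. Each strand was counted, so the full TGACGTCA, present in Dusp1 and in Btg2, gave 2 matches at 1 place. Egr1 and Ier2 are not in this tally. The core was held by 17.8% of all 32851 promoters of the table and by 31.5% of the promoters of tested genes. Among lower DEGs with an entry 12 of 27 (44.4%) held it, and among higher DEGs 23 of 95 (24.2%). The 12 include the 5 immediate early promoters shown, whose genes prompted the search and for which the core was displayed. The share among lower DEGs is therefore not independent of that choice, and no conclusion is drawn from it. GAANNTTC was found once in each Hsp70 promoter, 104 bases before the start, and in 6.69% of all promoters and 6.08% of those of tested genes. Among lower DEGs these 2 were the only promoters of 27 to hold it (7.41%), and among higher DEGs 12 of 95 (12.6%) did. The run of 3 units was in 4 of 95 promoters of higher DEGs (4.21%) and in 0 of 27 of lower DEGs, against 0.471% of the promoters of tested genes. The promoters of Hspa1a and Hspa1b had the same base at 247 of 250 places. A match describes the letters and says nothing of binding.

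The other lower genes had no shared list. Rpe65 (ENSMUSG00000028174), the retinoid isomerase known from the retinal pigment epithelium, measured 54.8, 19.5, 18.8, 25.2 and 40.0 TPM in sham and 16.7, 17.3, 9.87 and 6.82 TPM in PTE+ mice. It was the only 1 of the 12 named lower genes whose groups did not overlap, and its difference of −1.22 (SE 0.35, exact permutation p = 0.0159) kept its call with each mouse left out. Fam163a measured 21.1, 9.31, 26.8, 15.8 and 26.6 TPM in sham and 4.27, 3.19, 5.45 and 22 TPM in PTE+ mice, where 9_19 was at the sham level (−1.38, SE 0.47, exact permutation p = 0.0635). Tnfsf12, which encodes the cytokine TWEAK, fell by 1.30 on the log2 scale (SE 0.52). Its lowest value was 0.42 TPM in PTE+ mouse 8_10, and without this mouse the difference was −0.68 and not called, nor was it without sham mouse 9_9 (−1.15) or 9_11 (−1.13).

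Hif3a, a hypoxia-inducible factor subunit, fell by 0.91 (SE 0.35, exact permutation p = 0.0317), at 4.13, 8.36, 6.58, 8.38 and 14.5 TPM in sham and 2.59, 6.44, 2.63 and 3.95 TPM in PTE+ mice. Only PTE+ mouse 9_17 lay within the sham range, and the call was lost without PTE+ mouse 8_10 (−0.78) or 9_18 (−0.79). Dynlt1b, a dynein light chain with near-identical copies in the genome, fell by 1.02 (SE 0.39), with no call without PTE+ mouse 9_17 (−0.86) or 9_19 (−0.66). Gm10974 was listed at 0 TPM in all 4 PTE+ mice and in sham mice 8_15 and 9_11, and at 19.4, 30.8 and 24.7 TPM in sham mice 8_16, 9_9 and 9_10 (exact permutation p = 0.238), so no fold change is given. Its call was lost without sham mouse 8_16, 9_9 or 9_10. Sst, the neuropeptide somatostatin, fell by 0.79 (SE 0.32), and without PTE+ mouse 9_17 the difference was −0.48 and not called, nor was it without PTE+ mouse 9_18 (−0.80) or sham mouse 8_15 (−0.62) or 9_10 (−0.76).

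Genes of normal astrocyte function were mostly below the threshold. Of the 14 astrocyte identity genes 2 were DEGs, Gfap and Aqp4, both higher, beside 1.19% of all tested genes, with a median of 0.15. Aqp4, the water channel of the endfeet, measured 417, 404, 523, 605 and 892 TPM in sham and 610.03, 899.55, 910.5 and 825 TPM in PTE+ mice. Sham mouse 9_11 was at the PTE+ level, and the difference of 0.56 (SE 0.23, exact permutation p = 0.0635) lost its call without PTE+ mouse 9_17 (0.50), 9_18 (0.50) or 9_19 (0.54), or sham mouse 8_15 (0.46), 8_16 (0.45) or 9_9 (0.54). Aqp4 was also the 1 DEG among the 12 genes of the potassium, water and gap junction list, whose median was 0.20. Gja1, the main astrocyte connexin, measured 1641, 1428, 1752, 1410.2 and 3187 TPM in sham and 1537, 2129.7, 2398 and 2389.7 TPM in PTE+ mice, and was no DEG with sham mouse 9_11 included. Without that mouse, 7 of 14 identity genes (Sox9, Slc1a3, Gfap, Aqp4, Gja1, Fgfr3 and Slc4a4), 5 of 12 potassium, water and gap junction genes and 4 of 13 glutamate and GABA handling genes were higher and 0 lower, beside the 8.3% of all tested genes.

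Hmox1, heme oxygenase, was the 1 DEG among 16 metallothionein and glutathione genes (list median 0.07), beside 1.19% of all tested genes. Gclc was also higher when sham mouse 9_11 was left out, beside 8.3% of all tested genes. Hmox1 measured 25.3, 22.9, 24.2, 17.03 and 29.3 TPM in sham and 31.2, 32.02, 30.01 and 30.7 TPM in PTE+ mice, without overlap and within a narrow range in PTE+ mice. Its difference of 0.39 (SE 0.17, exact permutation p = 0.0159) was lost as a call without any of the 4 PTE+ mice or without sham mouse 8_16, 9_9 or 9_10 (0.28 to 0.40), and after median centring (0.31). Of 11 neuropeptide processing genes 9 were tested, with a median of 0.15. Pam was higher and Sst lower, beside 1.19% of all tested genes higher and 0.373% lower. There were 0 DEGs among the tested genes of the glutamate and GABA handling list (13 tested, median 0.13), adenosine (8, −0.0047), interferon and MHC class I (16, 0.28), cholesterol and ApoE (15, 0.18), fatty acid oxidation and carnitine (13, 0.13), extracellular matrix (7, 0.12), and growth factors and BMP/TGF-beta (14, 0.15). Leaving out sham mouse 9_11 gave 4 of 15 cholesterol and ApoE, 3 of 7 extracellular matrix and 2 of 14 growth factor genes higher and 0 lower, beside 8.3% of all tested genes. Ttyh2, a chloride channel family gene that the study names, rose by 0.47 (SE 0.21, exact permutation p = 0.111), with PTE+ mouse 8_10 below every sham mouse and the other PTE+ mice above them. Its call was lost without any PTE+ mouse with prefix 9 or any sham mouse but 8_15 (0.36 to 0.46), and after median centring (0.38). It was 0.70 without PTE+ mouse 8_10 and 0.81 among mice with prefix 9, a DEG in both.

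**Figure D4:**
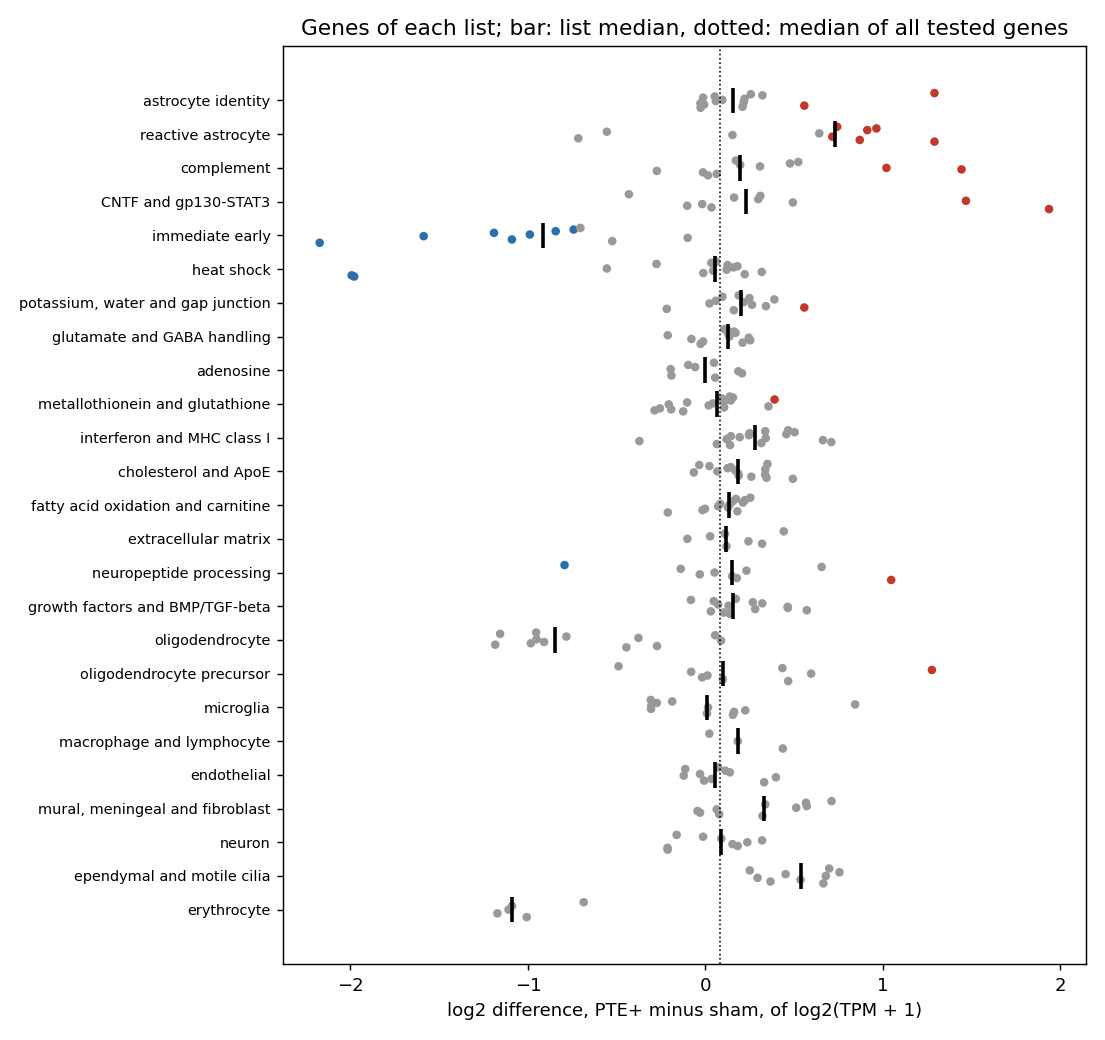
Each row is 1 list and each point 1 tested gene, with the log2 difference between 4 PTE+ and 5 sham libraries on the horizontal axis, red for higher DEGs, blue for lower DEGs and grey for the rest. The bar is the median of the list and the dotted line that of all tested genes (0.09), and the reactive astrocyte row lies to the right at 0.73 and the immediate early row to the left at −0.92.

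The study names oligodendrocyte genes among those lowered in CCI-injured mice against sham, by DESeq2 on raw counts. The test here is a different one, with PTE+ mice alone against sham and limma on TPM. In it these genes were not called with all 9 mice. Of 12 tested markers 0 were DEGs, 10 had a difference below 0, and the median was −0.85. Mog, a myelin surface protein, measured 14.4, 108, 27.3, 17.4 and 2.85 TPM in sham and 24.4, 4.48, 2.30 and 12.6 TPM in PTE+ mice. Sham mice 8_16 and 9_11 were at opposite ends and enclosed the PTE+ mice but for 9_18 (−1.18, SE 0.83, exact permutation p = 0.317). Mag differed by −0.98 (SE 0.66), Hapln2 by −1.16 (SE 0.72), Opalin by −0.95 (SE 0.81) and Tmem125 by −0.95 (SE 0.64). In the PTE- mice, left out of this comparison, Mog differed from the same sham mice by −1.98 (SE 0.68) and Mag by −1.75 (SE 0.67). Hapln2 differed there by −1.55 (SE 0.58), Opalin by −1.34 (SE 0.61) and Tmem125 by −1.44 (SE 0.49). Without sham mouse 9_11, 7 of 12 were lower (Hapln2, Ermn, Mobp, Mag, Mbp, Tmem125 and Mog), with a median of −1.32 against 0.15 for all tested genes, beside the 1.65% of all tested genes that were lower. Without sham mouse 8_16 the median was −0.27 (10 tested), with Mog at −0.58 and Mag at −0.52.

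In the other marker lists, C1ql1 was the 1 DEG of 9 tested precursor genes (median 0.10), beside the 1.19% of all tested genes that were higher. With all 9 mice there were 0 DEGs among microglia (11 tested, median 0.01), macrophage and lymphocyte (3, 0.18), endothelial (10, 0.05), mural, meningeal and fibroblast (10, 0.33), neuron (9, 0.09), ependymal and motile cilia (9, 0.54) and erythrocyte genes (5, −1.09). Once sham mouse 9_11 was left out, 3 of 9 neuron genes (Nefl, Rbfox3 and Snap25) were lower, with a median of −0.19. Bcas1 of the precursor genes was lower too, beside the 1.65% of all tested genes that were lower in that fit. Pdgfrb of the mural, meningeal and fibroblast genes was higher, beside 8.3% of all tested genes. The other genes taken from the study, Pfas, Gli3, Cst3 and Ccl4, are named there for PTE+ against PTE- mice, a comparison given below. Against sham, Pfas differed by 0.57 (SE 0.39), Gli3 by 0.23 (SE 0.33) and Cst3 by −0.13 (SE 0.22), all without a call. Ccl4 did not pass the filter. Without sham mouse 9_11, at 27.0 TPM of Gli3 against 7.87 to 10.1 TPM in the other sham mice, Gli3 was higher by 0.53 and a DEG, and so was Pfas, by 0.78.

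The study asks which changes go with epilepsy and which with injury alone, so PTE+ mice were also compared with the 10 ipsilateral PTE- mice. PTE+ and PTE- mice share the sham mice when each is set against sham, so the difference between them was tested directly. Of 10473 genes tested, 60 (0.573%) were DEGs between PTE+ and PTE- mice, 34 higher and 26 lower, and 0 had an adjusted p under 0.05 (63 at an unadjusted p under 0.05, smallest limma adjusted p 0.977). When each library was centred on its median, 14 genes were higher and 36 lower, of 50 DEGs, so the excess of higher genes was not kept. Without PTE- mouse 9_14, in which 10727 genes were above 0 TPM, the count of 60 became 197, a choice made after seeing the data. It was 121 without PTE+ mouse 8_10 and 23 without 9_17. Of the 11 named higher genes 0 were past the threshold in this test. Gfap differed from PTE- by 0.15 (SE 0.36), Ucma by 0.99 (SE 0.67), Cntf by −0.35 (SE 0.50) and Bace2 by 0.19 (SE 0.66), and a missed threshold does not show that the groups are alike. In the 10 PTE- mice Gfap had a lowest, median and highest level of 179, 603 and 1065 TPM, and Cntf of 2.45, 12.04 and 26.3 TPM.

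Of the 12 named lower genes 11 were tested against PTE- mice, and 7 were past the threshold (Fos, Hspa1b, Hspa1a, Egr1, Tnfsf12, Junb and Ier2). They were picked for low levels in the same 4 PTE+ libraries, which favours a difference in the same direction here. Fos differed by −1.78 (SE 0.56) and Egr1 by −1.31 (SE 0.44). The PTE- mice ranged from 32.7 to 453 TPM of Fos with a median of 86.7 TPM, so that 3 of 4 PTE+ mice lay below all of them. Against sham, PTE- mice differed in Fos by −0.39 (SE 0.68). Of the other genes named here that were higher against sham, Pam and Ttyh2 were past the threshold against PTE- mice too, Pam at 1.19 (SE 0.32), with a PTE- median of 9.04 TPM, and Ttyh2 at 0.67 (SE 0.26). Pfas, no DEG against sham, was past it against PTE- mice at 0.74 (SE 0.32). These 3 genes were taken from the study, which used the same libraries, and this favours a call here. Gli3 at 0.54 (SE 0.30), Cst3 at −0.26 (SE 0.14) and Ccl4 at −1.37 (SE 0.78), also taken from it, were not past the threshold against PTE- mice.

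Whether the PTE+ difference was larger on the injured side was tested by the interaction of group and hemisphere, with the contralateral libraries of 4 PTE+ and 5 sham mice. Of 10767 genes tested, 105 (0.975%) were past the threshold, 99 with a larger and 6 with a smaller difference on the ipsilateral side, and 0 had an adjusted p under 0.05 (105 at an unadjusted p under 0.05, smallest limma adjusted p 0.999). The hemispheres come from the same animals, and with the mouse as a block (3 PTE+ and 5 sham mice with both libraries) 294 genes (2.73%) were past it, again 0 after adjustment (smallest limma adjusted p 0.985). Of these 294 genes 234 had a larger and 60 a smaller difference on the ipsilateral side. Median centring of the libraries, without the block, gave 69 larger and 25 smaller, so the few smaller differences depended on the fit and the scaling. Without single mice the count of 105 was 141 (PTE+ 8_10), 215 (9_17), 47 (9_18), 46 (9_19), 60 (8_17), 67 (sham 8_15), 124 (8_16), 163 (9_9), 57 (9_10) and 255 (9_11).

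Of the 11 named higher genes 5 differed between hemispheres (Ucma, Cntf, Bace2, C3 and Gfap), and of the 12 lower genes 0 did. With the mouse as a block the same 5 higher genes were past the threshold, and so was 1 of the lower genes, Ier2 (−0.56, SE 0.24). These genes were picked for their ipsilateral difference, which is part of the interaction, so a larger difference on that side is favoured. Contralateral Gfap measured 440, 174, 444, 389 and 204 TPM in sham mice and 156, 139, 339.85 and 339.5 TPM in PTE+ mice 8_10, 8_17, 9_17 and 9_18. No PTE+ mouse was above the sham range there, and the hemisphere difference was 1.74 (SE 0.49) and 1.32 with the mouse as a block. Contralateral Cntf measured 1.07, 0, 8.38, 2.30 and 2.83 TPM in sham and 0.34, 0.16, 0.47 and 1.24 TPM in PTE+ mice, a hemisphere difference of 2.94 (SE 0.78, 2.58 with the block). Contralateral Bace2 was 4.78 to 11.3 TPM in PTE+ and 4.20 to 16.2 TPM in sham mice, a hemisphere difference of 1.72 (SE 0.49, 1.37 with the block). Ceacam1 also had a higher mean in PTE+ mice on the contralateral side, with 21.2 TPM in PTE+ and 5.83 TPM in sham mice, and its hemisphere difference was −0.14 (SE 0.66, 0.22 with the block).

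**Figure D5:**
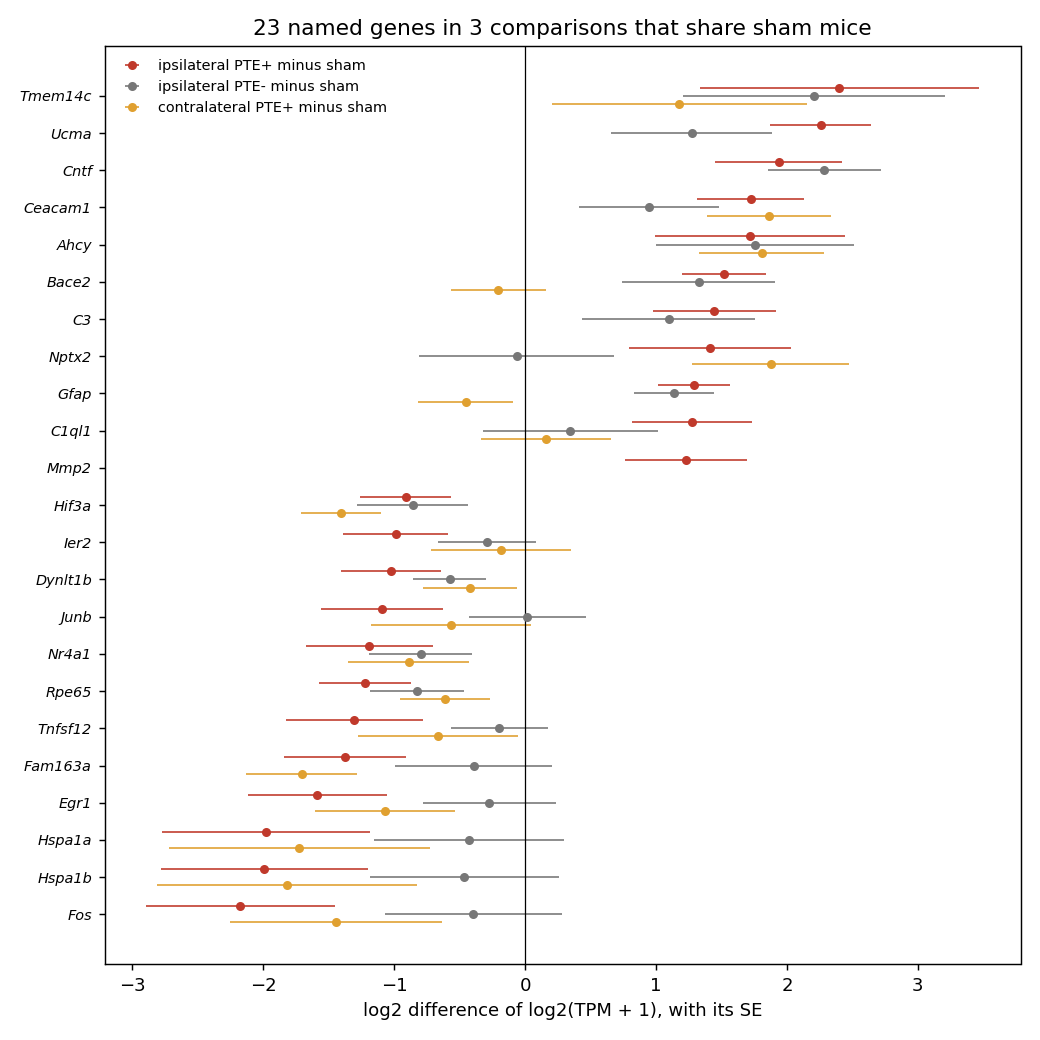
Each row is 1 of 23 named genes, with log2 differences and their SE on the horizontal axis for ipsilateral PTE+ (red) and PTE- (grey) and contralateral PTE+ mice (orange), each minus sham, and a point is missing where a gene did not pass the filter. The 3 comparisons share sham mice, and Gfap lies at 1.29, 1.14 and −0.45 while Fos lies at −2.17, −0.39 and −1.45.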

How the data were processed

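Per the labels and methods, the authors trimmed reads with Trim Galore 0.6.4, quantified them on mm10 with RSEM 1.2.28 and Bowtie2 2.4.1, and deposited TPM, 1 table per hemisphere. The annotation release is not stated. The authors tested raw counts with DESeq2 1.36.0, which cannot be repeated on TPM. TPM keep no depth, so precision rests on the spread between mice.

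Values were compared as log2(TPM + 1) with limma 3.58.1 in R 4.3.3, with a variance trend, on genes whose mean passed 5 TPM in either group. The log2 difference understates changes of genes at low TPM. Adjusted p-values are Benjamini-Hochberg over all genes tested. Single genes had two-sided exact permutation tests over all 126 arrangements of the 9 libraries, and no correction was made for the number of genes named. Group against hemisphere was tested as an interaction, without and with the mouse as a block. The fits were tested on simulated data.

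Named genes included the 12 largest DEG changes in each direction among genes without a Gm or Rik name. The largest Gm or Rik change in each direction was added, as were list genes that were DEGs and the 2 most abundant genes of each list. The last were 18 genes that the study names for this cortex, which are not all it names. Of the genes so chosen 2 are not reported here. Lcn2 was named as a list member. Motifs and promoters were chosen after the values were seen. The comparison and the lists were chosen with earlier results of these data known. Positions are from GENCODE vM21 on GRCm38, and 119 identifiers had no symbol. Alternatives covered the pseudocount, the TPM filter, scaling, array weights, a fit of 3 groups, the name prefix, the variance trend, the fold threshold and leaving out each mouse.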

Additional observations from a re-analysis of the deposited data

Results flagged for a closer look

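In 179 pairs of a named gene and a group, 13 had 1 mouse far from the others of its group, and chance alone gives about 1 in 20. Among PTE+ mice, 9_18 had 2.44 TPM of Tmem14c against 66.7 to 124 TPM in the other 3, and 9_19 had 0.28 TPM of Ahcy against 7.55 to 8.96 TPM. PTE+ mouse 8_10 had 5.42 TPM of Hspa1a (others 4.09 to 4.26 TPM) and was low in Stat3 (55.7 TPM, others 88.3 to 91.5 TPM), Hadhb (424 TPM, others 504 to 518 TPM), Scg3 (425 TPM, others 553 to 575 TPM) and Pdgfrb (47.2 TPM, others 84.3 to 94.1 TPM). Among sham mice, 9_10 had 61.7 TPM of Tmem14c (others 2.18 to 4.93 TPM) and 8_16 had 6.11 TPM of Ahcy (others 0.08 to 0.34 TPM). Sham mouse 9_11 was high in Gli3 (27.0 TPM, others 7.87 to 10.1 TPM), Gja1 (3187 TPM, others 1410.2 to 1752 TPM) and Pdgfrb (173 TPM, others 33.3 to 53.4 TPM) and low in Rsph1 (14.5 TPM, others 56.7 to 82.4 TPM). The causes were not tested.

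For 10 named genes the PTE+ minus sham difference was larger on the ipsilateral than on the contralateral side by the test of the interaction, at an unadjusted limma p under 0.05 that was not kept after adjustment over all genes (smallest limma adjusted p 0.999). On the log2 scale the difference between hemispheres was 1.93 for Ucma, 2.94 for Cntf, 1.72 for Bace2, 1.87 for C3 and 1.74 for Gfap. It was 1.93 for 1500015O10Rik, 1.13 for Vim, 1.24 for Serpina3n, 0.93 for Aspg and 1.49 for C4b. With the mouse as a block all 10 were past the threshold too, and so were Cxcl10 (1.23), Aqp4 (0.65), Gja1 (0.46) and Pfas (0.80), while Ier2 (−0.56), Dusp1 (−0.46), Olig1 (−0.46) and Sst (−1.47) were past it with the opposite sign. These genes were named for their ipsilateral difference or taken from lists or the study, and the ipsilateral difference is part of the interaction.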

How the results depend on the processing

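The 163 DEGs between PTE+ and sham mice became 384 with no filter on TPM and 245 with a filter at 1 TPM, which test more genes, 97 at a fold of 1.5, 1221 with array weights and 83 in a fit of all 3 ipsilateral groups. That fit gave 217 without PTE- mouse 9_14, an alternative chosen after seeing the data. Leaving out single mice gave 95 (without PTE+ 9_18) to 1038 (without sham 9_11). The other settings stayed within 1.5 times of 163, and 0 genes had an adjusted p under 0.05 in each setting in which it was computed, where 163 had an unadjusted p under 0.05 with all mice.

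The 60 DEGs between PTE+ and PTE- mice became 441 with array weights, 23 to 121 without single PTE+ mice and 197 without PTE- mouse 9_14, also chosen after seeing the data. The other 9 PTE- mice were not left out in turn. The 105 genes that differed between hemispheres became 294 with the mouse as a replicate block, and 46 to 255 with single mice left out. The causes of these moves were not tested.

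For the 38 named genes that were called, 556 of 721 values under the alternatives were past the threshold in the same direction and 165 were not, and 10 genes were past it in each setting (Ucma, Cntf, Ceacam1, Bace2, Gfap, Rpe65, 1500015O10Rik, Vim, C4b and Pam). In the fit of 3 groups 13 of the named genes lost their call, among them C3, C1ql1, Fam163a and Btg2, and among mice with prefix 9 there were 15, among them Fos, Egr1 and both Hsp70 genes. Cst3, uncalled at −0.13, changed sign among mice with prefix 9 (0.0016). Without single mice the list median ran from 0.53 to 0.86 for reactive astrocyte genes and from −1.07 to −0.68 for immediate early genes. It ran from −1.32 to −0.27 for oligodendrocyte genes. For microglia (−0.37 to 0.46) and endothelial genes (−0.19 to 0.43), among other lists, it took both signs. Under median centring it was 0.64 for reactive astrocyte and −1.0 for immediate early genes. The depth of each library is unknown, so what it limits could not be computed.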
